A study of Mus musculus with 4 samples.

Results

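The genes described here are 45 genes that type I interferon switches on, a module of antiviral effectors, nucleic acid sensors and regulators of the response itself. They were taken by symbol from a list of classical interferon-stimulated genes, and all 45 were found among the 55401 genes in each of 4 RNA sequencing libraries. Each library held RNA of CD3+CD8+ cells sorted from the lungs of C57BL/6J mice, with 1 library per group and no replicates. The depleted IPF-LC group received the anti-CD4-depleting antibody in the IPF-LC model, the isotype IPF-LC group received the isotype antibody in the same model, the depleted LC group received the depleting antibody in the LC model, and the isotype LC group received the isotype antibody in the LC model. The labels spell out neither model name and give neither the number nor the age of the mice behind a library. The comparisons ask how the genes stood after CD4 depletion in each model, and how the models differed under each antibody.

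Type I interferons, the interferon alpha family and interferon beta, bind the receptor formed by Ifnar1 and Ifnar2. The receptor activates the kinases Jak1 and Tyk2, which phosphorylate STAT proteins, Stat2 among them, and these enter the nucleus with Irf9 as the complex ISGF3. ISGF3 binds the interferon-stimulated response element (ISRE) in the promoters of many such genes, whose products block viral replication, sense foreign nucleic acid or feed back on the pathway. In CD8 T cells, interferon signalling is known to act together with antigen and costimulation during priming, and effector and exhausted cells carry the same gene signature.

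The promoters were searched for the core of that element. RefSeq promoter windows of 300 bases (250 before and 50 after the start of the gene, mouse build GRCm38.p6) were matched by symbol for 33 of the 45 genes. The core searched was GAAA, any 2 bases, then GAAA again, which reads TTTC, any 2 bases, TTTC on the other strand. Both strands were searched and overlapping matches were counted. At least 1 match lay in the window of 17 of the 33 genes (51.5%), against 1079 of 27025 genes in the whole promoter table (3.99%). Stretches of 60 bases around the matches are printed for 10 genes, chosen after their values were seen because they include genes far below their isotype level, a nearly identical gene pair and a transcription factor of the pathway itself. Capitals mark the matched core, in the order in which the gene reads.
Ifit1, chr19:34640769-34640828, plus strand: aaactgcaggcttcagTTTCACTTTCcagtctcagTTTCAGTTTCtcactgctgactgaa
Ifit3, chr19:34583365-34583424, plus strand: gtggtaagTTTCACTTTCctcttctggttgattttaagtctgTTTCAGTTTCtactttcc
Ifit3b, chr19:34607761-34607820, plus strand: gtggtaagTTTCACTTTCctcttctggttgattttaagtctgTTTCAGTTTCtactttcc
Rsad2, chr12:26456538-26456597, minus strand: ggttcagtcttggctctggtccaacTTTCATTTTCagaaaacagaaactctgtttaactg
Isg15, chr4:156200856-156200915, minus strand: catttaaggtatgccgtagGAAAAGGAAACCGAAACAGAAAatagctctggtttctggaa
Slfn5, chr11:82951922-82951981, plus strand: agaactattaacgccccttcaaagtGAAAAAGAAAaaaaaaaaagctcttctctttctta
Slfn8, chr11:83020824-83020883, minus strand: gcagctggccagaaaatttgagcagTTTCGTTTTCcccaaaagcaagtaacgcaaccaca
Slfn9, chr11:82991841-82991900, minus strand: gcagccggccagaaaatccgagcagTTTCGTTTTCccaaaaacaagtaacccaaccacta
Bst2, chr8:71537565-71537624, minus strand: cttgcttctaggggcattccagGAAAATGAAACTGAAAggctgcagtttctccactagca
Stat2, chr10:128270251-128270310, plus strand: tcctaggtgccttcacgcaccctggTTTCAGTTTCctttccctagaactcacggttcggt
Ifit3 and Ifit3b carried the same 60 bases, and Isg15 carried 3 overlapping cores. A match is a description of the letters in the window and not a measured binding site.

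Values are given as CPM, the counts of a gene scaled to a common library size, made from the deposited expected counts after scaling with TMM, a factor that balances the bulk of genes between libraries. A ratio is the log2 of one library's CPM over another's with a prior count of 0.5, so that -1 is 2-fold lower. Its 95% interval covers counting error only, because a single library per group gives no spread between animals. The library totals lay between 14946579 and 16217677 counts. All 45 genes averaged at least 1 CPM over the 4 libraries and were read against the 12231 genes that did so.

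As a set, the interferon genes were lower in the depleted library than in the isotype library of the same model. Their summed level was 3173 CPM (depleted) and 4230.0 CPM (isotype) in IPF-LC, and 3375 CPM (depleted) and 4241 CPM (isotype) in LC. Per length, the summed level was 3504 TPM (the deposited length-corrected unit) in the depleted and 4591 TPM in the isotype IPF-LC library, and 4163 TPM (depleted) and 4699 TPM (isotype) in LC. Both sums placed both depleted libraries below both isotype libraries. Without the 5 genes of highest mean TPM, the sum was 1116 TPM (depleted) and 1498 TPM (isotype) in IPF-LC, and 981 TPM (depleted) and 1738 TPM (isotype) in LC. Per length, Ly6e, a membrane protein of T cells that interferon raises further, stood highest with a mean of 1482 TPM, and Ifi44 lowest with 0.60 TPM.

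**Figure D1:**
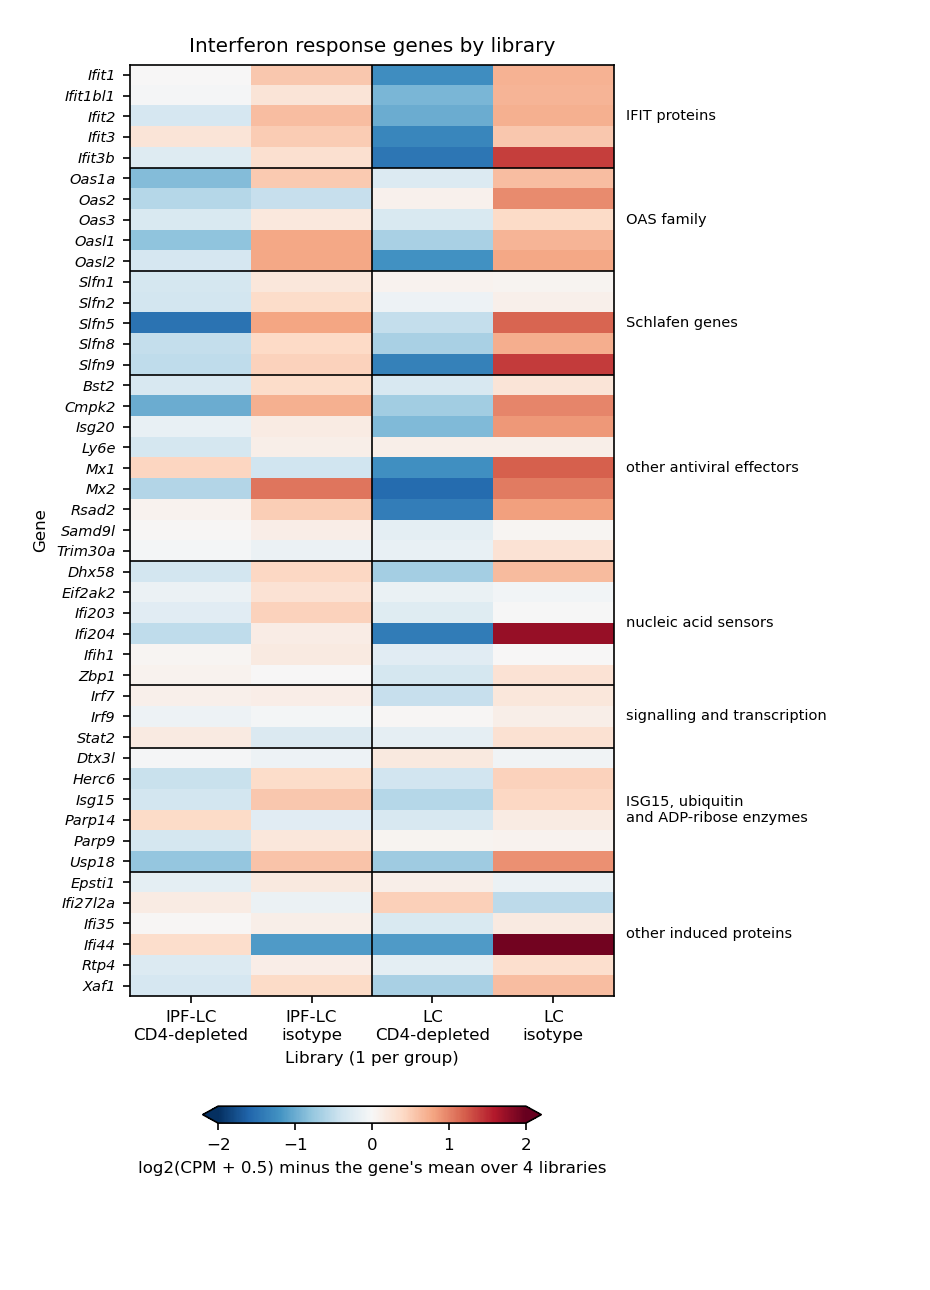
Level of each of the 45 interferon response genes in the 4 libraries (columns, 1 per group), as log2(CPM + 0.5) minus the gene's own mean over the libraries, grouped by role. The isotype LC column is mostly red and the depleted LC column mostly blue, as for Ifit1 with 26.8 CPM in the depleted and 103 CPM in the isotype library of LC.

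More of the module lay past 2-fold below the isotype library in LC than in IPF-LC. In IPF-LC, the depleted library had 8 of the 45 genes at least 2-fold below the isotype library (17.8%, against 13.6% of all genes), and 1, Ifi44, was at least 2-fold higher (against 8.84% of all genes). In LC, the depleted library had 21 at least 2-fold below the isotype library (46.7%, against 15.4% of all genes), and 1, Ifi27l2a, was at least 2-fold higher (against 5.85%). Over all levels together, the share in IPF-LC thus lay near the background and that in LC above it. The background itself varied with level. In IPF-LC, 3 of the 8 genes under 10 CPM were at least 2-fold lower (against 30.5% of all genes of that level). So were 5 of the 29 between 10 and 100 CPM (against 7.84%) and 0 of the 8 at 100 CPM or more (against 1.21%). The median ratio of the 45 genes was -0.52 in IPF-LC, where all genes had -0.02, and -0.89 in LC, where all genes had 0.01.

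Smaller differences ran the same way in most of the module. A lower ratio in both models, of any size, was found for 35 of the 45 genes (77.8%, against 29.4% of all genes). For 32 genes, both depleted libraries lay below both isotype libraries (71.1%, against 23.5% of all genes), and for Dtx3l and Ifi27l2a both lay above (against 21.4% of all genes), although the TPM ratio of Dtx3l in IPF-LC was -0.01. A lower ratio in IPF-LC with a higher one in LC was found for Slfn1 and Epsti1 (against 22.0% of all genes; the TPM ratio of Slfn1 in LC was -0.07), and the reverse for 6 genes, Mx1, Trim30a, Zbp1, Stat2, Parp14 and Ifi44 (against 20.0%). The ratio in LC lay below that in IPF-LC for 31 genes (68.9%, against 51.1% of all genes). Of the 4 libraries, the depleted LC library was the lowest for 27 genes (against 23.2% of all genes) and the depleted IPF-LC library for 14 (against 27.6%). The isotype LC library was the highest for 30 genes (against 26.0% of all genes) and the isotype IPF-LC library for 12 (against 25.1%). The depleted libraries were the highest for 2 (LC, against 22.1%) and 1 (IPF-LC, against 26.8%), and the isotype libraries the lowest for 1 (LC, against 24.5%) and 3 (IPF-LC, against 24.6%). The 7 genes at least 2-fold lower in both models (15.6%, against 7.44% of all genes) were Oasl1, Oasl2, Slfn5, Slfn9, Cmpk2, Mx2 and Usp18. On the TPM scale, 3 of them were less than 2-fold lower in IPF-LC, with ratios of -0.68 for Oasl2, -0.92 for Slfn9 and -0.95 for Usp18. Counting intervals lay wholly below 0 for 32 genes in IPF-LC (against 38.6% of all genes) and for 37 in LC (against 35.0%), and wholly above 0 for 5 genes in IPF-LC (against 35.1%) and 3 in LC (against 35.0%).

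**Figure D2:**
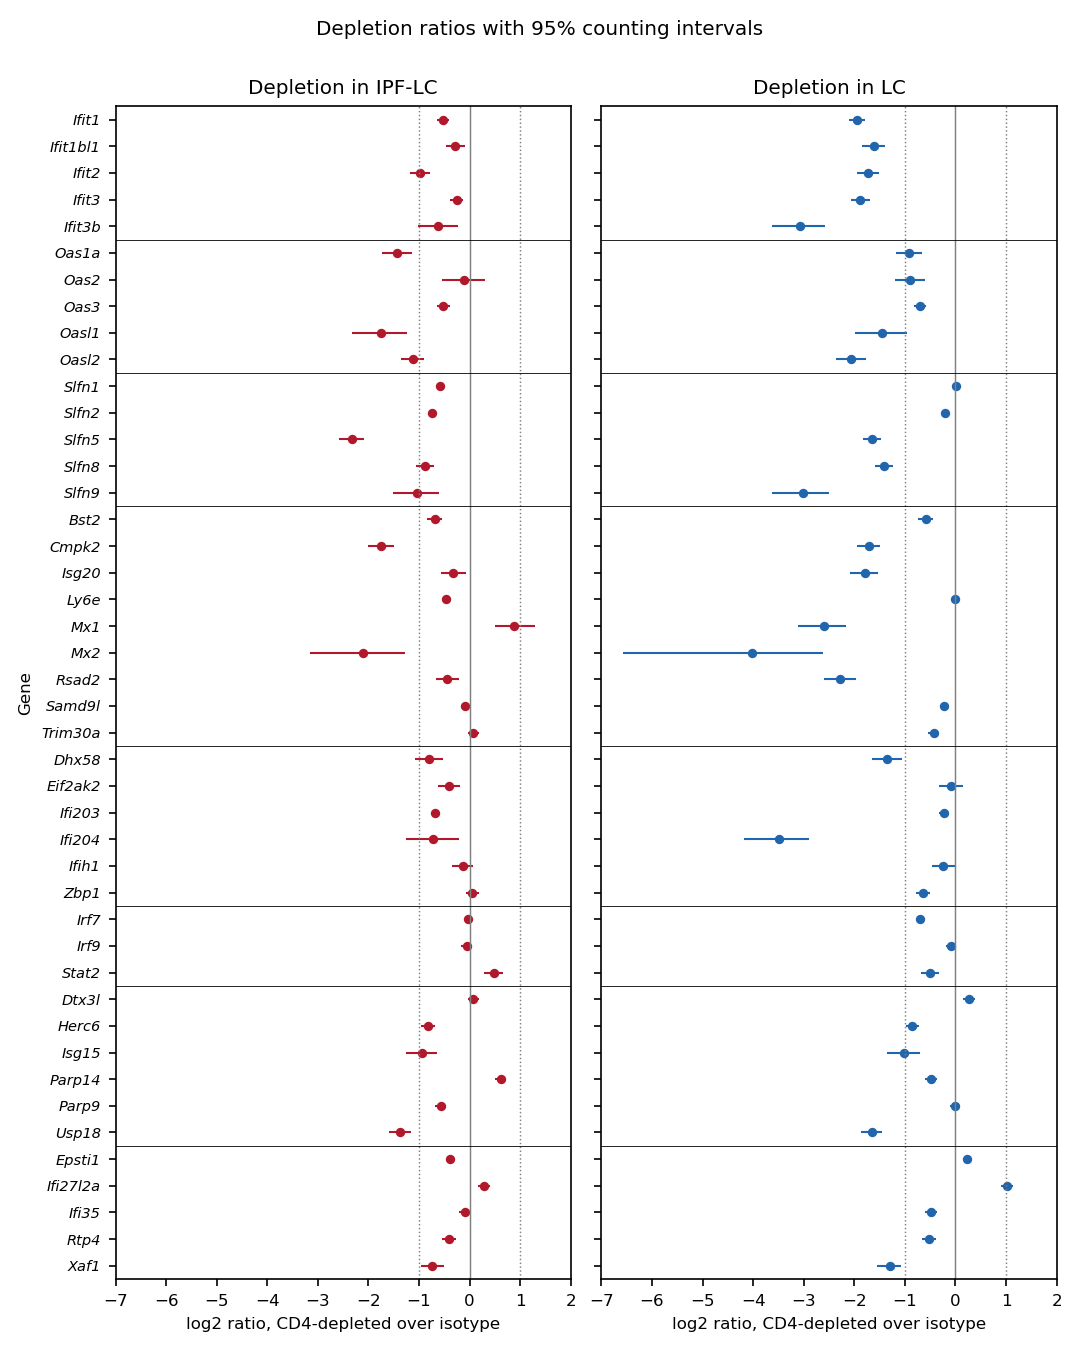
Log2 ratio of the depleted over the isotype library for each interferon response gene, in IPF-LC and in LC, with bars for the 95% counting interval. Ifi44, which had 0 counts in a library of each model, is not drawn; most points lie left of 0, and the LC points of the IFIT genes lie near -1.6 or lower.

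The labelled cell type and other cell types were checked with marker lists. All 16 CD8 T cell markers were detected, and 0 were 2-fold apart between antibodies in either model. Of all genes, 13.6% were that much lower and 8.84% higher in IPF-LC, and 15.4% lower and 5.85% higher in LC. The CD8 T cell markers summed to 9383 CPM (depleted) and 10366 CPM (isotype) in IPF-LC, and 10019 CPM (depleted) and 8682 CPM (isotype) in LC. For 20 markers of macrophages and monocytes, the sum was 1204 CPM (depleted) and 3499.8 CPM (isotype) in IPF-LC, and 215 CPM (depleted) and 3761 CPM (isotype) in LC. At least 2-fold lower in the depleted library were 18 of them in IPF-LC (against 13.6% of all genes) and 20 in LC (against 15.4%). Adgre1, Marco, Fcgr1, C1qa and Aif1 were among those at 0 in the depleted LC library. The markers of endothelium summed to 165 CPM (depleted) and 331 CPM (isotype) in IPF-LC, and 160.2 CPM (depleted) and 423 CPM (isotype) in LC. Those of plasmacytoid dendritic cells, known for making type I interferon, summed to 147 CPM (depleted) and 144 CPM (isotype) in IPF-LC, and 115 CPM (depleted) and 142 CPM (isotype) in LC, with Siglech at 0 in all but the isotype LC library. Markers of dendritic cells summed to 358 CPM (depleted) and 654 CPM (isotype) in IPF-LC, and 422 CPM (depleted) and 1231 CPM (isotype) in LC, and those of fibroblasts to 98.8 CPM (depleted) and 355 CPM (isotype) in IPF-LC, and 76.4 CPM (depleted) and 837 CPM (isotype) in LC. Neutrophil markers summed to 22.3 CPM (depleted) and 25.7 CPM (isotype) in IPF-LC, and 13.1 CPM (depleted) and 305 CPM (isotype) in LC, and natural killer cell markers to 168 CPM (depleted) and 199.8 CPM (isotype) in IPF-LC, and 86.7 CPM (depleted) and 319.5 CPM (isotype) in LC. The sums of these lists other than the CD8 T cell and plasmacytoid ones, and those of B cells and lung epithelium, were lower in the depleted library of each model, as the interferon genes were. The sum of the 8 markers of CD4 and regulatory T cells went the other way. It was 359.9 CPM (depleted) and 74.0 CPM (isotype) in IPF-LC, and 344 CPM (depleted) and 183 CPM (isotype) in LC. Of the 8, 6 were at least 2-fold higher (against 8.84% of all genes) and 2 lower (against 13.6%) with depletion in IPF-LC. In LC, 2 were higher (against 5.85%) and 0 lower (against 15.4%). Cd4 itself was among the 2 lower in IPF-LC, with 0 counts in the depleted library, so the sum there does not follow Cd4. In LC, 0 of the 8 had a ratio below 0. What any of these lists contributed to the lower ratios of the module was not tested. In such bulk samples, fewer cells of a type and less RNA per cell cannot be told apart.

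**Figure D3:**
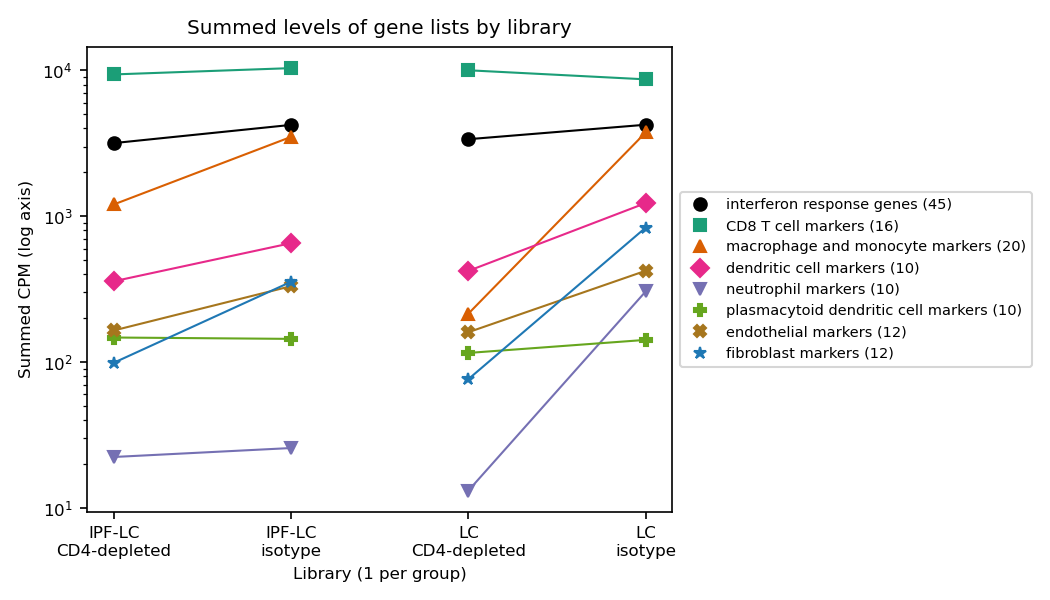
Summed CPM of marker lists and of the interferon response genes in the 4 libraries (1 per group). The CD8 T cell sum stayed within 8682 and 10366 CPM, while the macrophage and monocyte sum was 215 CPM in the depleted LC library and 3761 CPM in the isotype LC library.

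The 5 IFIT genes encode proteins that bind viral RNA and block its translation. All 5 were at least 2-fold lower in LC after depletion (against 15.4% of all genes). In IPF-LC 0 were (against 13.6%), a count near the background. Ifit1, the member that recognises incompletely capped RNA, stood at 64.1 CPM (depleted) and 92.6 CPM (isotype) in IPF-LC, and 26.8 CPM (depleted) and 103 CPM (isotype) in LC. Ifit3, which partners and stabilises Ifit1 in human cells, stood at 58.3 CPM (depleted) and 69.5 CPM (isotype) in IPF-LC, and 19.3 CPM (depleted) and 71.3 CPM (isotype) in LC. Both were high in the isotype libraries of each model, low only in the depleted LC library, and between these levels in the depleted IPF-LC library. The ratio of Ifit1 was -0.53 (-0.65 to -0.41) in IPF-LC and -1.95 (-2.11 to -1.79) in LC, and that of Ifit3 was -0.26 (-0.38 to -0.13) in IPF-LC and -1.88 (-2.07 to -1.70) in LC.

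The other IFIT genes had the same order in LC. Ifit2, an RNA-binding member that also acts on cell death, stood at 22.3 CPM (depleted) and 43.9 CPM (isotype) in IPF-LC, and 14.03 CPM (depleted) and 46.6 CPM (isotype) in LC. Its ratio was -0.98 (-1.17 to -0.79) in IPF-LC, just short of 2-fold, and -1.73 (-1.96 to -1.51) in LC. Ifit1bl1, a mouse relative of Ifit1, stood at 25.1 CPM (depleted) and 30.5 CPM (isotype) in IPF-LC, and 13.3 CPM (depleted) and 40.8 CPM (isotype) in LC. Its depleted and isotype libraries lay close together in IPF-LC, with a ratio of -0.28, and far apart in LC, with -1.62. Ifit3b, whose coding sequence and promoter nearly copy those of Ifit3, had between 2.23 CPM in the depleted LC library and 19.0 CPM in the isotype LC library. Its expected counts were not whole numbers, and neither were those of Ifit3, so reads shared between genes were in part divided and the levels of both are uncertain.

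The enzymatically active members of the OAS family make oligoadenylates when they meet double-stranded RNA, and these activate RNase L. Oas1a stood at 8.47 CPM (depleted) and 23.0 CPM (isotype) in IPF-LC, and 13.0 CPM (depleted) and 24.6 CPM (isotype) in LC. It was lowest in the depleted IPF-LC library, and its ratio was -1.44 (-1.74 to -1.15) in IPF-LC and -0.92 (-1.17 to -0.67) in LC. The counts of Oas1a were not whole, so its level is uncertain too. Oasl2, a family member with a ubiquitin-like tail, stood at 14.6 CPM (depleted) and 31.8 CPM (isotype) in IPF-LC, and 7.66 CPM (depleted) and 32.0 CPM (isotype) in LC. Both isotype libraries had nearly the same level of Oasl2 and both depleted libraries lay below it, with ratios of -1.12 (-1.36 to -0.90) in IPF-LC and -2.06 (-2.36 to -1.77) in LC. On the TPM scale the ratio of Oasl2 in LC was -1.26, with mean gene lengths in the tables of 1325 bases in the depleted and 2140.2 bases in the isotype LC library.

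The remaining OAS genes were either low in level or less than 2-fold apart. Oasl1, which in mice restrains translation of Irf7, stood at 2.50 CPM (depleted) and 8.51 CPM (isotype) in IPF-LC, and 2.87 CPM (depleted) and 7.89 CPM (isotype) in LC. Its ratios were -1.75 in IPF-LC and -1.45 in LC at a level under 10 CPM. Oas3 differed by -0.52 in IPF-LC and -0.70 in LC, and Oas2 by -0.12 in IPF-LC, with an interval that held 0, and -0.89 in LC. Median ratios of the family were -1.12 in IPF-LC and -0.92 in LC.

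Among the Schlafen genes, which restrain growth of lymphocytes and other cells, the size of the difference varied widely. Slfn5 stood at 10.7 CPM (depleted) and 53.5 CPM (isotype) in IPF-LC, and 21.9 CPM (depleted) and 68.9 CPM (isotype) in LC. Its depleted libraries lay well below its isotype libraries in each model, and its ratio of -2.32 (-2.58 to -2.09) in IPF-LC was the lowest of the 45 genes there. In LC its ratio was -1.65 (-1.83 to -1.47). Slfn8 stood at 26.6 CPM (depleted) and 49.2 CPM (isotype) in IPF-LC, and 23.4 CPM (depleted) and 62.1 CPM (isotype) in LC, with ratios of -0.89 in IPF-LC and -1.41 in LC. Slfn9 had ratios of -1.05 in IPF-LC and -3.02 in LC, where the TPM ratio was -2.31, but its counts were not whole and its level stayed below 20 CPM. Slfn2, which mouse T cells need to stay quiescent, stood at 351 CPM (depleted) and 586 CPM (isotype) in IPF-LC, and 423 CPM (depleted) and 489 CPM (isotype) in LC, and its ratio was -0.74 in IPF-LC and -0.21 in LC. Slfn1, another regulator of T cell growth, had ratios of -0.58 in IPF-LC and 0.02 in LC.

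Several other antiviral effectors were far lower in the depleted LC library. Rsad2, which encodes viperin, an enzyme that makes a chain-terminating nucleotide, stood at 18.4 CPM (depleted) and 25.02 CPM (isotype) in IPF-LC, and 6.44 CPM (depleted) and 31.4 CPM (isotype) in LC. Its depleted LC library was the lowest by a wide margin, and its ratio was -0.44 (-0.67 to -0.22) in IPF-LC and -2.28 (-2.61 to -1.97) in LC. Cmpk2, the neighbouring gene for a mitochondrial nucleotide kinase, stood at 10.7 CPM (depleted) and 36.0 CPM (isotype) in IPF-LC, and 13.2 CPM (depleted) and 43.4 CPM (isotype) in LC. Unlike Rsad2, it was low in both depleted libraries, with ratios of -1.75 (-2.01 to -1.50) in IPF-LC and -1.71 (-1.95 to -1.49) in LC.

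Isg20, an exonuclease, stood at 15.4 CPM (depleted) and 19.3 CPM (isotype) in IPF-LC, and 9.12 CPM (depleted) and 31.8 CPM (isotype) in LC. It was lowest in the depleted LC library and highest in the isotype LC library, with ratios of -0.32 in IPF-LC and -1.80 in LC. Bst2, which encodes tetherin and holds budding virus at the cell surface, stood at 38.2 CPM (depleted) and 61.6 CPM (isotype) in IPF-LC, and 38.1 CPM (depleted) and 57.3 CPM (isotype) in LC, and both depleted libraries had the same level. Ly6e stood at 684 CPM (depleted) and 939 CPM (isotype) in IPF-LC, and 937 CPM (depleted) and 946 CPM (isotype) in LC, with ratios of -0.46 (-0.49 to -0.42) in IPF-LC and -0.01 (-0.05 to 0.02) in LC. Samd9l, a growth restraint of blood cells, had ratios of -0.10 in IPF-LC and -0.22 in LC. Trim30a, a brake on inflammatory signalling in mice, had 0.07 in IPF-LC and -0.43 in LC, and its counts were not whole.

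The Mx genes, which encode antiviral GTPases, were low in all 4 libraries and partly disagreed between units. Mx1 stood at 10.1 CPM (depleted) and 5.44 CPM (isotype) in IPF-LC, and 2.87 CPM (depleted) and 17.6 CPM (isotype) in LC, so that its ratio was 0.89 (0.50 to 1.29) in IPF-LC and -2.60 (-3.10 to -2.16) in LC. On the TPM scale its ratio in IPF-LC was -0.41, and the authors' tables give the gene a mean length of 2821 bases in the depleted and 1326 bases in the isotype IPF-LC library. The direction of Mx1 in IPF-LC therefore depends on the unit, whereas in LC the TPM ratio was -1.97. Mx2 had 13 counts (depleted) and 58 (isotype) in IPF-LC, and 3 (depleted) and 56 (isotype) in LC, with ratios of -2.11 (-3.15 to -1.27) in IPF-LC and -4.03 (-6.56 to -2.62) in LC. On the TPM scale they were -1.48 in IPF-LC and -2.56 in LC.

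Of the 6 nucleic acid sensors, 2 were past 2-fold lower with depletion in LC (against 15.4% of all genes) and 0 in IPF-LC (against 13.6%). Dhx58, which encodes LGP2, a regulator of RNA sensing, stood at 11.1 CPM (depleted) and 19.5 CPM (isotype) in IPF-LC, and 8.87 CPM (depleted) and 22.6 CPM (isotype) in LC. Both depleted libraries lay below both isotype libraries, with ratios of -0.81 in IPF-LC and -1.35 in LC, the second -0.71 on the TPM scale. Ifih1, which encodes the RNA sensor MDA5, had ratios of -0.14 in IPF-LC and -0.24 in LC, and Eif2ak2, the kinase PKR, had -0.41 in IPF-LC and -0.09 in LC. Zbp1, a sensor of Z-form nucleic acid, had 0.06 in IPF-LC and -0.65 in LC. The HIN domain gene Ifi204 stood at 3.27 CPM (depleted) and 5.44 CPM (isotype) in IPF-LC, and 1.53 CPM (depleted) and 17.4 CPM (isotype) in LC, with a ratio of -3.48 (-4.17 to -2.90) in LC. Its counts were not whole, and neither were those of its relative Ifi203.

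None of the 3 transcription factor genes was 2-fold apart between antibodies in either model. Stat2, a subunit of ISGF3, stood at 36.6 CPM (depleted) and 26.3 CPM (isotype) in IPF-LC, and 28.5 CPM (depleted) and 40.2 CPM (isotype) in LC. It was higher in the depleted library in IPF-LC and lower in the depleted library in LC, with ratios of 0.48 (0.29 to 0.66) in IPF-LC and -0.50 (-0.68 to -0.32) in LC. Irf7, the factor that amplifies interferon production, stood at 156 CPM (depleted) and 159 CPM (isotype) in IPF-LC, and 105 CPM (depleted) and 169.7 CPM (isotype) in LC, with ratios of -0.03 (-0.11 to 0.06) in IPF-LC and -0.69 (-0.78 to -0.60) in LC. Irf9, the DNA-binding part of ISGF3, lay between 99.9 CPM in the depleted IPF-LC library and 117 CPM in the isotype LC library.

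Genes of ISG15 conjugation were lower in both depleted libraries. Usp18, which removes ISG15 and also blocks signalling at the interferon receptor, stood at 15.6 CPM (depleted) and 40.4 CPM (isotype) in IPF-LC, and 16.2 CPM (depleted) and 50.9 CPM (isotype) in LC. Its ratio was -1.37 (-1.59 to -1.16) in IPF-LC and -1.65 (-1.86 to -1.45) in LC, and its 2 depleted libraries had nearly the same level. Isg15, the ubiquitin-like modifier, stood at 8.98 CPM (depleted) and 17.3 CPM (isotype) in IPF-LC, and 7.78 CPM (depleted) and 15.8 CPM (isotype) in LC, and its ratio was -0.95 (-1.25 to -0.65) in IPF-LC and -1.02 (-1.35 to -0.70) in LC. Herc6, the mouse ligase for ISG15, had ratios of -0.81 in IPF-LC and -0.85 in LC.

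The ADP-ribose enzymes of the module did not share that order. Parp14, an ADP-ribosyltransferase, stood at 106 CPM (depleted) and 69.5 CPM (isotype) in IPF-LC, and 65.1 CPM (depleted) and 91.6 CPM (isotype) in LC. It was highest in the depleted IPF-LC library, and its ratio was 0.62 (0.50 to 0.73) in IPF-LC and -0.49 (-0.61 to -0.37) in LC. Parp9 and Dtx3l, which form a complex that ligates ubiquitin, differed between themselves, Parp9 with ratios of -0.57 (-0.68 to -0.46) in IPF-LC and -0.01 (-0.12 to 0.09) in LC, and Dtx3l with 0.07 in IPF-LC and 0.26 in LC. The counts of Herc6, Parp9 and Dtx3l were not whole.

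Of the other induced genes, Ifi27l2a went against the module. It encodes a small mitochondrial protein and stood at 84.4 CPM (depleted) and 69.0 CPM (isotype) in IPF-LC, and 105 CPM (depleted) and 52.0 CPM (isotype) in LC. Both depleted libraries lay above both isotype libraries, with ratios of 0.29 (0.17 to 0.41) in IPF-LC and 1.02 (0.90 to 1.14) in LC. Scaling by library totals, by DESeq2 size factors or by the summed CD8 T cell markers, and the TPM scale, each left 0 genes at least 2-fold higher in LC. Epsti1, an interferon-induced gene of unclear function in T cells, stood at 232 CPM (depleted) and 304 CPM (isotype) in IPF-LC, and 288 CPM (depleted) and 245 CPM (isotype) in LC, with ratios of -0.39 in IPF-LC and 0.24 in LC.

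Xaf1, which counteracts an inhibitor of apoptosis, stood at 16.7 CPM (depleted) and 27.8 CPM (isotype) in IPF-LC, and 13.3 CPM (depleted) and 32.9 CPM (isotype) in LC. Its ratios were -0.74 in IPF-LC and -1.30 in LC, where the TPM ratio was -0.69. Rtp4 differed by -0.41 in IPF-LC and -0.53 in LC, and Ifi35 by -0.10 in IPF-LC and -0.49 in LC. Ifi44 had 14 counts (depleted) and 0 (isotype) in IPF-LC, and 0 (depleted) and 57 (isotype) in LC. Against a floor of 3 counts per library, it was at least 4.68-fold higher in the depleted than in the isotype IPF-LC library and at least 19.3-fold lower in the depleted than in the isotype LC library.

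**Figure D4:**
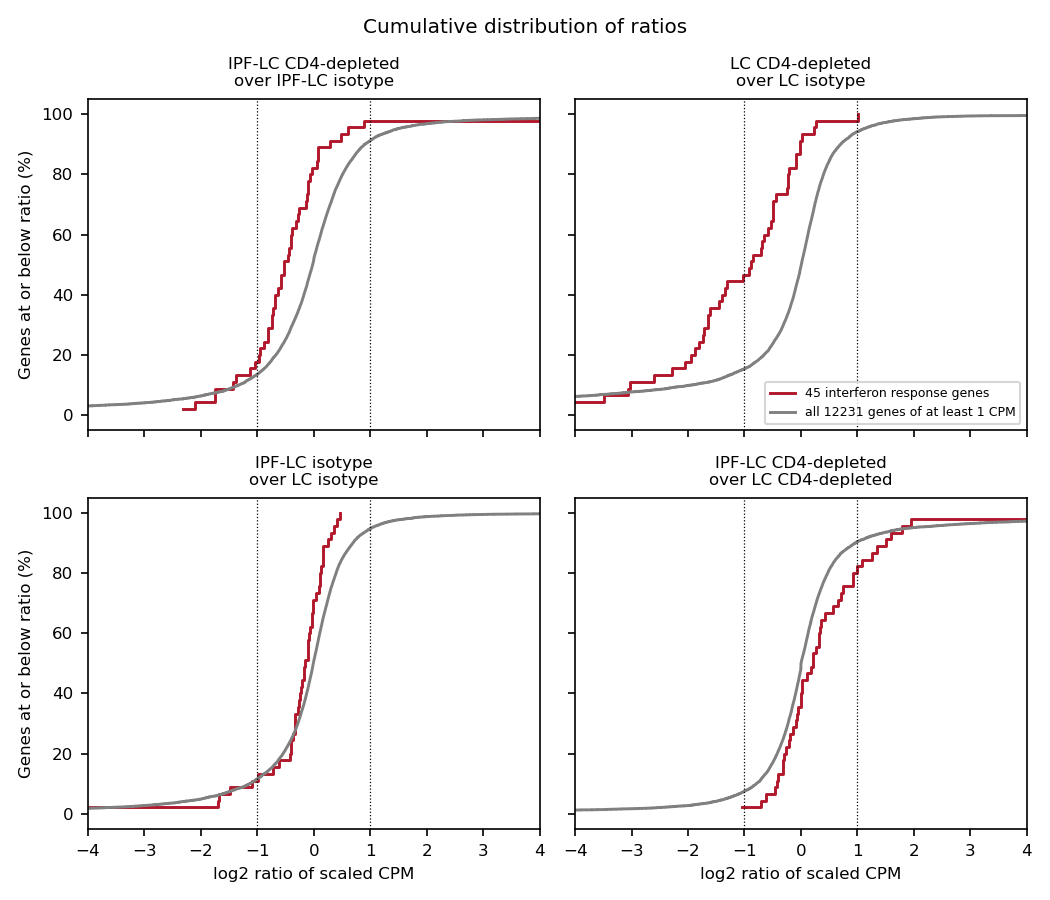
Cumulative share (%, vertical axis) of the 45 interferon response genes and of all 12231 genes of at least 1 CPM, by log2 ratio of scaled CPM (horizontal axis), for the 4 pairwise comparisons of 1 library each. The member curve lies left of the curve of all genes for depletion in each model, furthest in LC, where the median was -0.89, and right of it for the depleted libraries of IPF-LC over LC, where the median was 0.21.

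Between the models, the median of the module lay a little below 0 with the isotype antibody and a little above 0 with the depleting antibody. With the isotype antibody, 5 genes were at least 2-fold lower in IPF-LC than in LC (11.1%, against 11.7% of all genes), 0 were at least 2-fold higher (against 5.32% of all genes), and the median ratio was -0.16. These 5, Ifit3b, Oas2, Mx1, Ifi204 and Ifi44, all had a mean under 10 CPM. They were 5 of the 8 genes of the module at that level, where 28.5% of all genes were that much lower. With the depleting antibody, 8 genes were at least 2-fold higher in IPF-LC than in LC (17.8%, against 9.59% of all genes), 1, Slfn5, was at least 2-fold lower (against 7.61%), and the median ratio was 0.21. The 8 were Ifit1, Ifit3, Ifit3b, Rsad2, Mx1, Mx2, Ifi204 and Ifi44. Without genes that have close paralogs, 4 of 35 were that much higher (against 9.59% of all genes) and the median was 0.03. At a minimum mean of 10 CPM, 3 of 37 were. These were 3 of the 29 genes between 10 and 100 CPM (against 4.34% of all genes of that level). Of the 8 genes at 100 CPM or more, 0 were (against 0.519%).

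The depletion ratio itself was higher in IPF-LC than in LC by at least 2-fold for 12 genes (26.7%, against 17.1% of all genes) and lower by that much for 0 (against 11.4% of all genes). Of the well-expressed genes among the 12, Ifit1, Ifit1bl1, Ifit3, Rsad2, Isg20 and Parp14 averaged at least 10 CPM. The median difference between the ratios was 0.40 for the 45 genes and 0.02 for all genes, and it was 0.13 for the 37 genes left at a minimum mean of 10 CPM. The models differ by only 2 libraries each, so the differences have no replicate check.

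The most abundant genes of the module were not past 2-fold, as for nearly all genes of that level. The 8 genes that averaged 100 CPM or more were Ly6e, Slfn2, Epsti1, Samd9l, Slfn1, Irf7, Ifi203 and Irf9. In either depletion comparison 0 of them were 2-fold apart, where 1.21% of all genes of that level were lower in IPF-LC and 1.3% in LC. Their median ratio was -0.43 in IPF-LC and -0.15 in LC, where all genes of that level had 0.07 and 0.12. Of the 29 genes between 10 and 100 CPM, 5 were at least 2-fold lower in IPF-LC (against 7.84% of all genes of that level) and 14 in LC (against 7.56%). Of the 8 genes under 10 CPM, 3 were lower in IPF-LC (against 30.5% of all genes of that level) and 7 in LC (against 36.8%). The level limits were chosen after the values were seen.

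An additive model of antibody and model over the 4 libraries (edgeR's quasi-likelihood test, with 1 residual degree of freedom) called 0 of the 45 genes, and 0 of 13050 genes, for depletion at an adjusted p under 0.05. That degree of freedom is the difference between the depletion ratios of the models. The p-values and standard errors of this design therefore do not measure spread between animals. At an unadjusted p under 0.05, 14 of the 45 genes were lower with depletion (31.1%, against 6.87% of all genes) and 0 were higher (against 3.13%). The smallest adjusted p among the 45 was 0.23, for Slfn5, whose modelled log2 change was -2.01 with a standard error of 0.31. DESeq2 in the same design called 3 genes lower, Slfn5, Cmpk2 and Usp18, with 381 of all genes lower and 100 higher, and limma-voom called 0. At a minimum mean of 10 CPM edgeR called Slfn5 alone among the 45, with 95 of all genes lower and 39 higher. For the model term edgeR called 0 genes, with 0 of the 45 at an unadjusted p under 0.05 (against 1.33% lower and 0.713% higher of all genes), and DESeq2 called 5 genes lower in IPF-LC than in LC, none of them in the module.

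Whether the promoter core went with the depletion ratio was also described. The 17 genes with a core had median ratios of -0.53 in IPF-LC and -1.02 in LC, and the 16 matched genes without one had -0.49 in IPF-LC and -0.77 in LC. At least 2-fold lower in LC were 9 of the 17 and 7 of the 16 (against 15.4% of all genes). In IPF-LC, 3 of the 17 and 3 of the 16 were that much lower (against 13.6%). Each printed stretch was chosen to hold a match, so the presence of the core there shows nothing about the ratios. Of the genes at least 2-fold lower in both models, Slfn5 and Slfn9 had a core, and Oasl1, Oasl2 and Cmpk2 had none. Mx2 and Usp18 had no promoter window. In the printed stretches the core is present in genes low in both depleted libraries, such as Slfn5. It is also present in genes low mainly in depleted LC, such as Ifit3 and Rsad2. Bst2, less than 2-fold lower with depletion in each model, carries it as well.

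Other genes of the interferon pathway were measured in the same libraries. Of 19 type I and III interferon genes, only Ifnl2 had any count, 3 in the isotype LC library. Ifnar1 stood at 369 CPM (depleted) and 371 CPM (isotype) in IPF-LC, and 419 CPM (depleted) and 368 CPM (isotype) in LC, and Ifnar2 at 70.5 CPM (depleted) and 98.7 CPM (isotype) in IPF-LC, and 71.8 CPM (depleted) and 85.5 CPM (isotype) in LC. Neither receptor chain was 2-fold apart between antibodies in either model. Of 7 measured receptor and kinase genes, 1, Jak2, was at least 2-fold higher with depletion in IPF-LC (against 8.84% of all genes) and 0 were lower, and in LC 0 were apart, with medians of -0.01 in IPF-LC and 0.10 in LC.

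Among 13 STAT, IRF and negative regulator genes, 1 was at least 2-fold higher (against 8.84% of all genes) and 2 were lower (against 13.6%) in IPF-LC, and 0 were higher (against 5.85%) and 3 lower (against 15.4%) in LC. Irf8, a factor of myeloid and dendritic cells, stood at 18.6 CPM (depleted) and 40.9 CPM (isotype) in IPF-LC, and 12.2 CPM (depleted) and 146 CPM (isotype) in LC, and Ptpn6, the phosphatase SHP-1, at 49.5 CPM (depleted) and 183 CPM (isotype) in IPF-LC, and 79.0 CPM (depleted) and 258 CPM (isotype) in LC. Among 11 measured sensing genes upstream of interferon, 1 was at least 2-fold higher and 2 lower in IPF-LC, and 0 were higher and 2 lower in LC, against the same shares of all genes.

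A second list of 36 measured interferon-induced genes outside the module had a median ratio of -0.48 in IPF-LC and -0.36 in LC. In it, 6 genes were at least 2-fold lower in IPF-LC and 4 in LC, and 0 were at least 2-fold higher in either (of all genes, 13.6% were lower and 8.84% higher in IPF-LC, and 15.4% lower and 5.85% higher in LC), so that the counts lay near the background. Tdrd7, a tudor domain gene that limits virus, stood at 4.17 CPM (depleted) and 18.6 CPM (isotype) in IPF-LC, and 5.36 CPM (depleted) and 20.1 CPM (isotype) in LC, and Parp12 at 11.5 CPM (depleted) and 31.9 CPM (isotype) in IPF-LC, and 7.59 CPM (depleted) and 17.5 CPM (isotype) in LC. Of 20 measured genes led by interferon gamma, 2 were at least 2-fold lower in IPF-LC (against 13.6% of all genes) and 5 in LC (against 15.4%), with medians of -0.38 in IPF-LC and -0.63 in LC. Ifng itself stood at 25.9 CPM (depleted) and 27.6 CPM (isotype) in IPF-LC, and 14.1 CPM (depleted) and 34.5 CPM (isotype) in LC.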

How the data were processed

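Gene expression was measured by RNA sequencing (SMART-Seq low-input reverse transcription, NEBNext Ultra II libraries, per the labels' protocols) in 4 libraries of sorted lung CD8 T cells, 1 per group. RSEM 1.3.3, STAR 2.7.11a, MultiQC 1.25.2 and fastp 0.23.4 appear in the submitters' processing notes with no role given, beside the build GRCm39; the annotation release is not given in the sources used here. Per the file headers, the authors deposited expected counts, TPM and FPKM per gene for 55401 genes. The deposited expected counts, estimates that divide shared reads among genes, are not normalised; 10 of the 45 genes had values that were not whole (tolerance 0.001). The deposited TPM values are corrected for length and scaled to a common sum, and the FPKM values were not used. The mean gene lengths given for Mx1 and Oasl2 come from the same tables.

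Expected counts were rounded and scaled with TMM (edgeR 4.0.16, R 4.3.3). Library totals were 16217677 (depleted IPF-LC), 15439173 (isotype IPF-LC), 15767811 (depleted LC) and 14946579 (isotype LC). Log2 ratios used a prior count of 0.5 and genes averaging 1 CPM or more. In the pairwise comparisons called means at least 2-fold, with no p-value, since each group has 1 library. In the additive model it means an adjusted p under 0.05. The 95% intervals are exact conditional binomial (Clopper-Pearson). They and the floor of 3 counts per library cover counting error only, since each group has 1 library. Reads carry no molecular identifiers, so the intervals treat each read as a molecule of its own and may be too narrow even for counting error. An additive model of antibody and model was fitted with edgeR's quasi-likelihood test, and with DESeq2 1.42.0 and limma 3.58.1 as alternatives; p-values were adjusted by Benjamini-Hochberg over all genes tested. The procedure was tested on simulated counts with less spread between libraries than the fit estimated here (a common dispersion of 0.23). That test therefore does not show how the procedure performs on these data.

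The genes, marker lists and pathway lists were chosen with earlier results of these data known. Values of all 4 libraries were given for genes averaging 10 CPM or more that were at least 2-fold apart in a comparison or went against the module in both models; values of other genes, added after they were seen, are given where a role or an exception needed them. Alternatives were other scalings, the TPM scale, a prior of 2, a minimum of 10 CPM or none, whole intervals beyond 2-fold, and leaving out 10 genes with close paralogs. Promoter sequences are RefSeq's (GRCm38.p6), matched by symbol, and used for letters and their own coordinates only.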

Additional observations from a re-analysis of the deposited data

Results flagged for a closer look

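Of the genes whose depletion ratio had opposite signs in the 2 models, 5 had counting intervals on opposite sides of 0. The ratio in IPF-LC minus that in LC was 3.49 on the log2 scale for Mx1, 1.11 for Parp14 and 0.98 for Stat2, whose ratios were above 0 in IPF-LC and below 0 in LC. For Ifi44 it was at least 6.49, with both ratios at the floor of 3 counts per library. For Epsti1 it was -0.63, with a ratio below 0 in IPF-LC and above 0 in LC. With 1 library per group these differences were not tested, and for Mx1 the TPM ratio in IPF-LC had the other sign, -0.41.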

How the results depend on the processing

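Each group has 1 library, so no library could be left out within a group, and no ratio carries a spread between animals. No paired analysis was possible because the groups hold 1 library each and the labels give no shared replicate numbers. Over the alternatives, the median depletion ratio of the interferon genes stayed between -0.60 and -0.38 in IPF-LC and between -1.10 and -0.65 in LC, and neither median changed sign.

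Scaling by the summed CD8 T cell markers shifted the median of all genes to 0.12 for depletion in IPF-LC, -0.20 for depletion in LC and -0.26 between the isotype libraries. Under it, depletion left 2 genes at least 2-fold higher in IPF-LC and 0 in LC, the isotype median between models was -0.42, 0 genes were 2-fold lower in depleted IPF-LC than in depleted LC, and the median difference between depletion ratios was 0.75, where all genes had 0.37. The signs of 18 of the 180 single-gene values changed under this scaling, 11 on the TPM scale, 8 with library totals, 1 with DESeq2 size factors and 0 with a prior of 2.

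On the TPM scale, 0 genes were 2-fold higher in the depleted library in either model, and 5 were 2-fold higher in depleted IPF-LC than in depleted LC. DESeq2 size factors, library totals and whole intervals each left 0 genes 2-fold higher in the depleted LC library. Whole intervals left 0 genes 2-fold lower and 5 higher in depleted IPF-LC than in depleted LC.

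A minimum of 10 CPM left 37 genes. In IPF-LC, 5 were then 2-fold lower and 0 higher with depletion, and in LC the median was -0.65. Of all genes, 7.84% between 10 and 100 CPM and 1.21% at 100 CPM or more were that much lower in IPF-LC. The shares that much higher were 4.8% and 2.16%. Between isotype libraries 0 were 2-fold lower in IPF-LC (against 5.42% and 0.606% of all genes at these levels). Between depleted libraries 3 were higher (against 4.34% and 0.519%). At this minimum 6 depletion ratios were 2-fold higher in IPF-LC (against 17.1% of all genes averaging 1 CPM or more), with a median difference of 0.13. Leaving out the 10 genes with close paralogs kept 35 genes. Of these, 3 were 2-fold lower in IPF-LC between isotype libraries (against 11.7% of all genes) and 4 higher between depleted libraries (against 9.59%). Their depletion ratio was 2-fold higher in IPF-LC for 6 (against 17.1%), with a median difference of 0.13.

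In the additive model, DESeq2 called 3 of the 45 genes lower with depletion, with 381 of all genes lower and 100 higher, and a minimum of 10 CPM called 1, with 95 lower and 39 higher. For the model term DESeq2 called 5 genes lower. The additive fit leaves 1 residual degree of freedom, which is the difference between the depletion ratios of the models and not spread between animals.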
